A study of Homo sapiens with 96 samples.

Results

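The comparison described here asked which mRNAs had moved 1 h after translation was blocked in melanoma cells whose BRAF and MEK kinases were inhibited. It rests on 6 of the 96 libraries of the series, the 3 labelled as cycloheximide and the 3 labelled as vehicle at 1 h after the inhibitor pretreatment. Libraries were put into groups by these labels. A375, the cell line used throughout, is an established human melanoma line that carries an activating BRAF mutation.

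Both groups of 3 had been kept for 18 h in the BRAF inhibitor vemurafenib (500 nM) together with the MEK inhibitor cobimetinib (500 nM), a combination called MAPKi. One group then received cycloheximide (CHX) at 100 µg/ml, the other vehicle, and both were taken at 1 h. Groups that served for comparison were the same arms at 0, 3 and 5 h, cells pretreated with DMSO in place of MAPKi, and cells given triptolide (25 µM) with or without cycloheximide, the latter added 5 min earlier. Every group held 3 libraries, and the labels do not say whether these came from separate cultures, so that p-values measure the spread between these libraries, which may be technical. RNA was taken from the cytoplasmic fraction, and each library was made from 500 ng of it. The assay was QuantSeq, in which priming on the poly(A) tail yields reads near the 3′ end, so that levels, given as reads scaled to library size (CPM), follow transcript number rather than length.

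Cycloheximide stops ribosomes during elongation, and triptolide stops transcription initiation. When protein synthesis is blocked, short-lived repressors and decay factors are lost, and mRNAs that these normally hold down accumulate, a behaviour long known as superinduction of immediate-early genes such as FOS and JUN. Many of these genes are induced through ERK, the kinase at the end of the pathway that BRAF and MEK drive.

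The 6 libraries held between 4419960 and 9575163 counts and between 15735 and 17139 genes with at least 1 count. Of 44659 gene entries, 14948 were abundant enough to test. Libraries of 1 group correlated at r = 0.960 to 0.969 over genes on the log2 scale. The inhibitors were traced by DUSP6, a phosphatase gene transcribed in response to ERK, which stood at 296, 385 and 395 CPM in DMSO at 0 h and at 1.65, 0.358 and 1.21 CPM in MAPKi at 0 h. Of 10 melanocyte lineage markers, 9 were tested, with a summed level of 2700 to 3183 CPM in the cycloheximide libraries and 2268 to 3249 CPM in the vehicle libraries. Markers of epithelial cells, leukocytes, endothelium and fibroblasts summed to at most 19.9 CPM for any of these types in any of the 6 libraries. In RNA from a whole culture, a change in the number of cells and a change in RNA per cell cannot be told apart.

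At 1 h the response was small. 8 genes rose, which is 0.0535% of the genes tested, and 1 fell, which is 0.00669% (edgeR quasi-likelihood test, Benjamini-Hochberg adjusted p under 0.05). The genes that rose were NARS2, TXNIP, FOS, GADD45B, DDIT4, JUN, RBM5 and SOX9, and the gene that fell was FLOT2. Without adjustment, 626 genes were higher (4.19%) and 780 were lower (5.22%) at p under 0.05, and scaling by library totals turned this balance to 974 higher and 390 lower. The median log2 change over all genes was 0.00 and the median standard error 0.24. In 931 genes the 3 cycloheximide libraries all lay above the 3 vehicle libraries (6.23%), and in 960 they all lay below (6.42%). At 0 h, where cells were taken at once, 0 genes passed in edgeR and 0 in DESeq2, against 194 higher and 186 lower at an unadjusted p under 0.05.

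**Figure D1:**
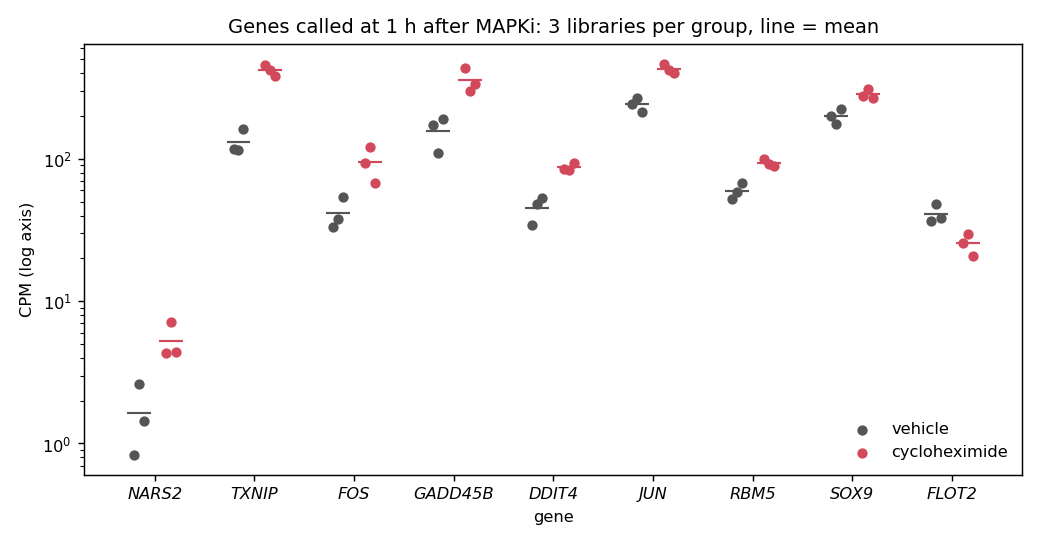
Level of each of the 9 called genes in the 6 libraries, with the gene on the x axis and CPM on a log y axis; grey points are vehicle libraries, red points cycloheximide libraries, and short lines the mean of 3. For each gene the 3 red points lie on one side of the 3 grey points, with the widest gap in TXNIP, where cycloheximide libraries start at 385 CPM and vehicle libraries end at 161 CPM.

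TXNIP encodes a thioredoxin-binding arrestin that restrains glucose uptake. It was found at 458, 423 and 385 CPM with cycloheximide and at 117, 116 and 161 CPM with vehicle. The groups did not overlap, and the log2 change was 1.68 ± 0.20 (SE, n = 3 against 3, edgeR adjusted p = 4.16e-08). TXNIP was the only gene of the 9 that passed in all 17 alternatives tried. Its vehicle level at 1 h was itself low among the vehicle times, which gave 222 to 236 CPM at 0 h, 219 to 277 CPM at 3 h and 239 to 294 CPM at 5 h. Set against cycloheximide at 0 h (203, 241 and 270.0 CPM) in place of vehicle at 1 h, the log2 change was 0.82 and still passed (edgeR adjusted p = 0.0161). Here and below, cycloheximide at 0 h as control also takes in any change over the hour itself.

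JUN and FOS encode the partners that form the AP-1 transcription factor. JUN stood at 468, 423 and 401 CPM with cycloheximide and at 242, 269 and 215 CPM with vehicle, a log2 change of 0.83 ± 0.13 (SE, n = 3 against 3, edgeR adjusted p = 0.000225). FOS was less abundant, with 94.2, 122 and 67.4 CPM against 33.1, 37.6 and 53.9 CPM, and its log2 change was 1.17 ± 0.23 (SE, n = 3 against 3, edgeR adjusted p = 0.0152). Neither gene's groups overlapped, although the lowest FOS library with cycloheximide, at 67.4 CPM, came near the highest with vehicle, at 53.9 CPM. In vehicle at 0 h, JUN had 252 to 273 CPM and FOS 29.4 to 39.2 CPM, ranges that overlapped those of vehicle at 1 h.

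GADD45B and DDIT4 are stress genes, the first coding for an activator of p38 and JNK signalling and the second for an inhibitor of mTORC1. GADD45B was at 434, 302 and 333 CPM with cycloheximide and at 172, 111 and 190.4 CPM with vehicle, a log2 change of 1.17 ± 0.24 (SE, n = 3 against 3, edgeR adjusted p = 0.0184). DDIT4 was at 84.3, 83.4 and 94.0 CPM against 34.4, 47.9 and 53.4 CPM, a log2 change of 0.94 ± 0.19 (SE, n = 3 against 3, edgeR adjusted p = 0.0173). The DDIT4 libraries with cycloheximide lay within the range of vehicle at 0 h, 68.9 to 87.2 CPM, or just above it, while vehicle at 1 h lay below that range, as did vehicle at 3 h with 39.3 to 48.8 CPM. Against cycloheximide at 0 h the DDIT4 change was 0.31 on the log2 scale and did not pass (edgeR adjusted p = 0.856).

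SOX9, a transcription factor of the neural crest and of melanoma cell states, was at 276, 308 and 267 CPM with cycloheximide and at 201, 177 and 224 CPM with vehicle. Its log2 change of 0.50 ± 0.11 was the smallest of the 8 (SE, n = 3 against 3, edgeR adjusted p = 0.0262). RBM5, a splicing regulator, was at 100.3, 91.5 and 88.5 CPM against 51.9, 58.1 and 67.7 CPM, a log2 change of 0.65 ± 0.14 (SE, n = 3 against 3, edgeR adjusted p = 0.0173). Against cycloheximide at 0 h RBM5 changed by 0.32 and did not pass (edgeR adjusted p = 0.652), whereas SOX9 changed by 0.59 and did (edgeR adjusted p = 0.000324). RBM5 overlaps RBM6 on its own strand and 2 antisense genes, and SOX9 overlaps SOX9-AS1. NARS2, FLOT2 and IER2 also overlap genes on the opposite strand, as do DDIT3, DUSP6, JUNB and EPB41L4A-AS1, named elsewhere here. ZFP36L1, CLK1 and SNHG1 overlap others on their own strand. Since the strand setting of the counting is not stated, part of the counts of all these genes may belong to their neighbours.

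NARS2 and FLOT2 rested on fewer reads or on narrower gaps. NARS2, the mitochondrial asparaginyl-tRNA synthetase, had 35, 76 and 31 reads (4.35, 7.15 and 4.37 CPM) with cycloheximide and 5, 12 and 14 reads (0.827, 2.61 and 1.45 CPM) with vehicle. Its log2 change of 1.76 ± 0.37 was nominally the largest (SE, n = 3 against 3, edgeR adjusted p = 0.0173). The vehicle level at 1 h stood below those of vehicle at 0, 3 and 5 h, which lay between 3.67 and 5.90 CPM, and the cycloheximide libraries at 1 h lay within or above that span. With the mean of all vehicle times as control, NARS2 changed by 0.57 and did not pass (edgeR adjusted p = 0.392). FLOT2, a scaffold protein of membrane rafts, was at 25.6, 29.8 and 20.9 CPM with cycloheximide and at 36.6, 48.5 and 38.6 CPM with vehicle. The log2 change was −0.68 ± 0.15 (SE, n = 3 against 3, edgeR adjusted p = 0.043), and FLOT2 passed in 6 of the 17 alternatives, fewer than any other gene called.

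The count of called genes rested on single libraries. It was 3 without cycloheximide replicate 1, 4 without cycloheximide replicate 2, 5 without vehicle replicate 1 and 25 without vehicle replicate 3, against 9 with all 6. JUN passed in 16 of 17 alternatives, GADD45B in 11, FOS and SOX9 in 10, and NARS2, DDIT4 and RBM5 in 9. No alternative turned the direction of any of the 9 genes.

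**Figure D2:**
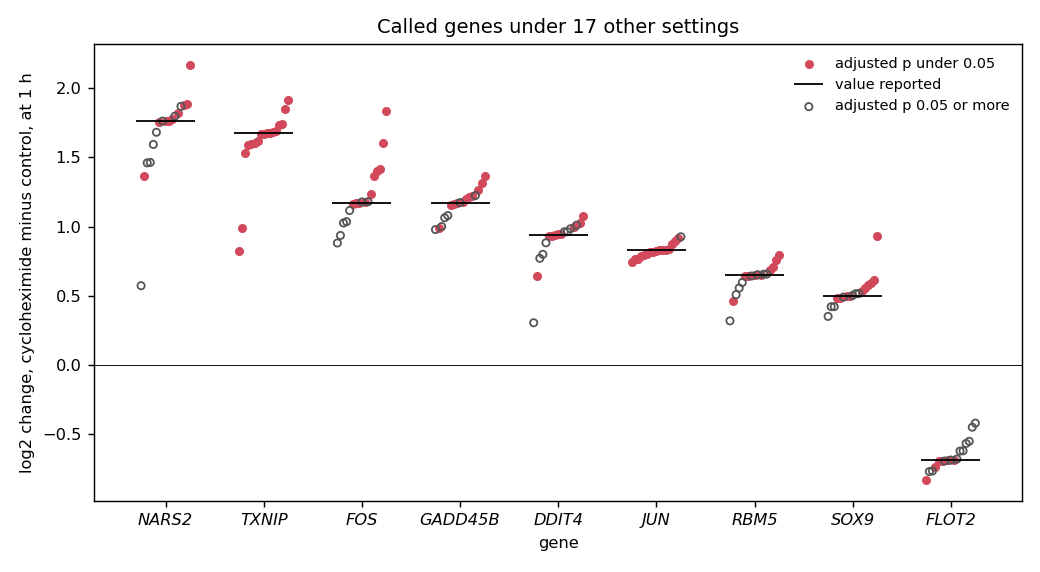
Log2 change of each called gene under 17 other settings (other scalings, filters, tests, controls, or with libraries left out), with the gene on the x axis; red points have an adjusted p under 0.05, open points do not, and the black line is the value reported. The points of each gene stay on one side of 0, TXNIP is red throughout from 0.82 to 1.91, and FLOT2 is mostly open.

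Sequences of these genes are shown for features known to shorten an mRNA's life or to set transcription. AU-rich elements in a 3′ UTR are bound by decay factors such as those of the ZFP36 family, and their core is ATTTA, which the strongest class repeats as the nonamer ATTTATTTA. FOS held 1 such nonamer and 5 ATTTA cores in a 3′ UTR of 806 bases, SOX9 had 8 cores in 2029 bases, JUN had 3 in 1284, and TXNIP and NARS2 had 1 each in 1416 and 702. DDIT4, GADD45B, RBM5 and FLOT2 had 0. Among all genes tested with a 3′ UTR in the reference, 74.7% held ATTTA at least once and 8.14% held the nonamer, against 5 and 1 of the 8 genes that rose. Windows of 30 bases follow, from GRCh38 with the GENCODE annotation, 5′ to 3′ on the strand of the gene, with the core in capitals. They lie in the 3′ UTR, in exonic sequence, of FOS at chr14:75282058-75282087 (plus strand), JUN at chr1:58781335-58781364 (minus strand), TXNIP at chr1:145993410-145993439 (minus strand) and SOX9 at chr17:72124527-72124556 (plus strand).
FOS: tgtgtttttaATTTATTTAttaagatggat
JUN: tccagaaaggatATTTAagaaaatacaata
TXNIP: ggagaagagccaATTTAacaaactaggaag
SOX9: ttccttaaagacATTTAagctaaaggcaac

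The FOS window differs from the others in that its core runs on into a repeat of the same letters. Promoters were read from RefSeq on GRCh38.p14, 250 bases before to 50 after the start, for 8 of the 9 called genes, all but SOX9. They were searched on both strands for a TATA box (TATAAA), a cAMP response element (TGACGTCA), an AP-1 site (TGAGTCA), an ETS site (CCGGAAG), the CArG box of serum response factor and the NF-kB consensus. TATAAA was found in FOS and GADD45B, at 33 and 31 bases before the start, and in 11.95% of all 27305 promoters and 5.97% of those of the genes tested. No cAMP response element, AP-1 site, ETS site or CArG box was found in the windows of the 7 genes that rose and had a promoter sequence. Only exact matches inside the window were counted, so sites further upstream would be missed. GADD45B held an NF-kB consensus 15 bases before the start, a motif found in 7.41% of all promoters and 8.73% of those of tested genes. The FLOT2 window held TGAGTCA, present in 4.92% of all promoters and 3.05% of those of tested genes, and CCGGAAG on the opposite strand, present in 10.67% and 18.7%. EGR1, an immediate-early gene that enters the comparison of pretreatments below, had 2 CArG boxes, a motif present in 1.29% of all promoters and 1.03% of those of tested genes. The promoter stretches lie at chr14:75278780-75278815 for FOS, chr19:2476081-2476116 for GADD45B and chr5:138465381-138465420 for EGR1, all on the plus strand, with the TATA box or the CArG box in capitals.
FOS: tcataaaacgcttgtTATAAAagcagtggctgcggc
GADD45B: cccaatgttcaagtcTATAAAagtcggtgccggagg
EGR1: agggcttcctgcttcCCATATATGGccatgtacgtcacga

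Gene lists give the wider picture at 1 h, as counts beside the shares of all genes given above. Of 12 tested immediate-early AP-1 genes, JUN and FOS rose, and 5 (with JUNB, ATF3 and MAFG) were higher at an unadjusted p under 0.05. Their median log2 change was 0.24. Against cycloheximide at 0 h, 8 of the 12 were higher without adjustment (median 0.63). Against the mean of all vehicle times 4 were higher and 1 lower (median 0.11). ATF3, a stress-induced AP-1 partner, was at 104, 89.7 and 87.7 CPM with cycloheximide and 63.0, 48.7 and 55.2 CPM with vehicle, groups that did not overlap, with a log2 change of 0.75 ± 0.18 (SE, n = 3 against 3, edgeR adjusted p = 0.0775). Of 23 other immediate-early genes 0 were called in edgeR, while 5 were higher and 1 lower without adjustment, and their median was 0.34. The number higher was 14 (median 0.84) against cycloheximide at 0 h, 12 (median 0.51) against the mean of all vehicle times and 0 without vehicle replicate 2. The controls at 0 h and over all vehicle times take in changes with time as well as the drug. Over all 14948 genes, 504 were higher against cycloheximide at 0 h and 853 against the mean of all vehicle times. Without vehicle replicate 2, 441 of 15467 genes were higher. Of 14 ERK feedback genes, 0 were called in edgeR and 1, DUSP4, was higher without adjustment, with a list median of 0.35. With either of those other controls 6 of the 14 were higher, with medians of 0.72 and 0.82.

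Feedback regulators of other pathways did not pass with all 6 libraries and vehicle at 1 h as control, though ZFP36L1 passed in 9 of the 17 alternatives and ID1 in 7. ID1, an inhibitor of basic helix-loop-helix factors and a target of BMP signalling, was at 336, 381 and 265 CPM against 138, 154 and 193 CPM. Its groups did not overlap, and the log2 change was 1.02 ± 0.24 (SE, n = 3 against 3, edgeR adjusted p = 0.0691). Of 7 ID genes and inhibitory SMADs tested, 4 were higher without adjustment. ZFP36L1, which brings deadenylases to AU-rich mRNAs, was at 174, 172 and 149.7 CPM against 103, 90.9 and 112 CPM, a log2 change of 0.69 ± 0.17 (SE, n = 3 against 3, edgeR adjusted p = 0.0716). Of 14 mRNA decay adaptors tested 0 passed in edgeR, and 4 were higher without adjustment, among them ZFP36L2 (log2 0.72).

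Lists tied to stress, splicing or surveillance moved in few members with vehicle at 1 h as control. DDIT4 was the only gene called of 18 ATF4 stress response genes, and that list's median was −0.07, which turned to 0.10 with either other control and to 0.13 without cycloheximide replicate 1. GADD45B was the only gene called among 27 mRNAs sensitive to nonsense-mediated decay and snoRNA hosts, whose median was 0.10. Without adjustment, 3 of these 27 were higher and 2 lower. Against cycloheximide at 0 h 5 were higher and 1 lower, and against the mean of all vehicle times 8 and 2. TRA2B, a splicing activator with a poison exon, was at 329.6, 322 and 308 CPM against 228, 253 and 253 CPM, groups that did not overlap, with a log2 change of 0.39 ± 0.09 (SE, n = 3 against 3, edgeR adjusted p = 0.0595). TXNIP was the only gene called of 14 short-lived regulators in amino acid and ubiquitin pathways. In the lists of p53 targets (14 tested), BCL2 family members (16), KLF factors (12), NF-kB feedback genes (27), ETS factors (11), Notch and clock feedback genes (15), SR splicing factors (15), replication-dependent histones (16), heat shock genes (12) and cell cycle regulators of G1 (12), 0 genes were called in edgeR. Between 0 and 2 members of each were higher at an unadjusted p under 0.05. Against cycloheximide at 0 h, 8 SR factors, 6 KLF factors and 6 NF-kB genes were higher, beside 504 of all 14948 genes. Against the mean of all vehicle times these were 8, 4 and 7, beside 853 of all genes. Both of these controls take in changes with time as well as the drug. In each of these lists 0 or 1 member was lower with either control. The remaining lists of this group had 0 to 4 members higher with either control.

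The cytosolic ribosomal protein genes, whose mRNAs carry a terminal oligopyrimidine tract and respond to mTORC1 in translation, lay slightly lower with cycloheximide. Of 44 tested, 0 were called in edgeR, but 23 were lower at an unadjusted p under 0.05 and 18 had groups that did not overlap, with a median log2 change of −0.16. Their summed level was 69672, 69080 and 72859 CPM with cycloheximide and 77330, 77821 and 75327 CPM with vehicle at 1 h. Vehicle ranged from 70423 to 76124 CPM at 0 and 3 h and from 65356 to 66759 CPM at 5 h, and cycloheximide at 0 h from 74406 to 76221 CPM. Without vehicle replicate 2, 5 of 44 were lower at an unadjusted p under 0.05, beside 294 of all 15467 genes. Without replicate 2 of every group 0 of 44 were, beside 220 of 14972. With the mean of all vehicle times as control 1 of 44 was, beside 597 of 14948. In DMSO 0 of the 44 were lower by that measure, with a median of −0.00, beside 296 of all 14948 genes. In MAPKi with triptolide at 1 h, 11 of the 44 were lower, with a median of −0.12, beside 398 of all genes. Later in MAPKi the summed level with cycloheximide ranged from 59075 to 61628 CPM at 3 h and from 49525 to 53430 CPM at 5 h. Both ranges lay below vehicle at the same times. Tubulin genes, whose mRNAs are degraded during translation when free tubulin is high, had a median of −0.21, with 3 of 11 lower without adjustment and 0 called in edgeR. Their median was −0.04 against cycloheximide at 0 h and −0.01 against the mean of all vehicle times, with 0 lower in both. Over all 14948 genes, 443 and 597 were lower with these controls. Without cycloheximide replicate 1, 0 tubulin genes were lower, beside 658 of all 15445 genes.

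The hours that followed separated the called genes into those that kept rising and those that did not. In MAPKi, 909 genes were higher with cycloheximide at 3 h (6.08%) and 2017 at 5 h (13.5%). 7 of the 8 genes that rose at 1 h were also higher at 3 h, all but NARS2, and 6 at 5 h, all but NARS2 and FOS. The difference between later and early effects, taken as the mean of 3 and 5 h minus 1 h, was above 0 in 808 genes (5.41%) and below 0 in 452 (3.02%). It uses the 1 h libraries that chose the 9 genes, which favours a smaller later effect in them.

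**Figure D3:**
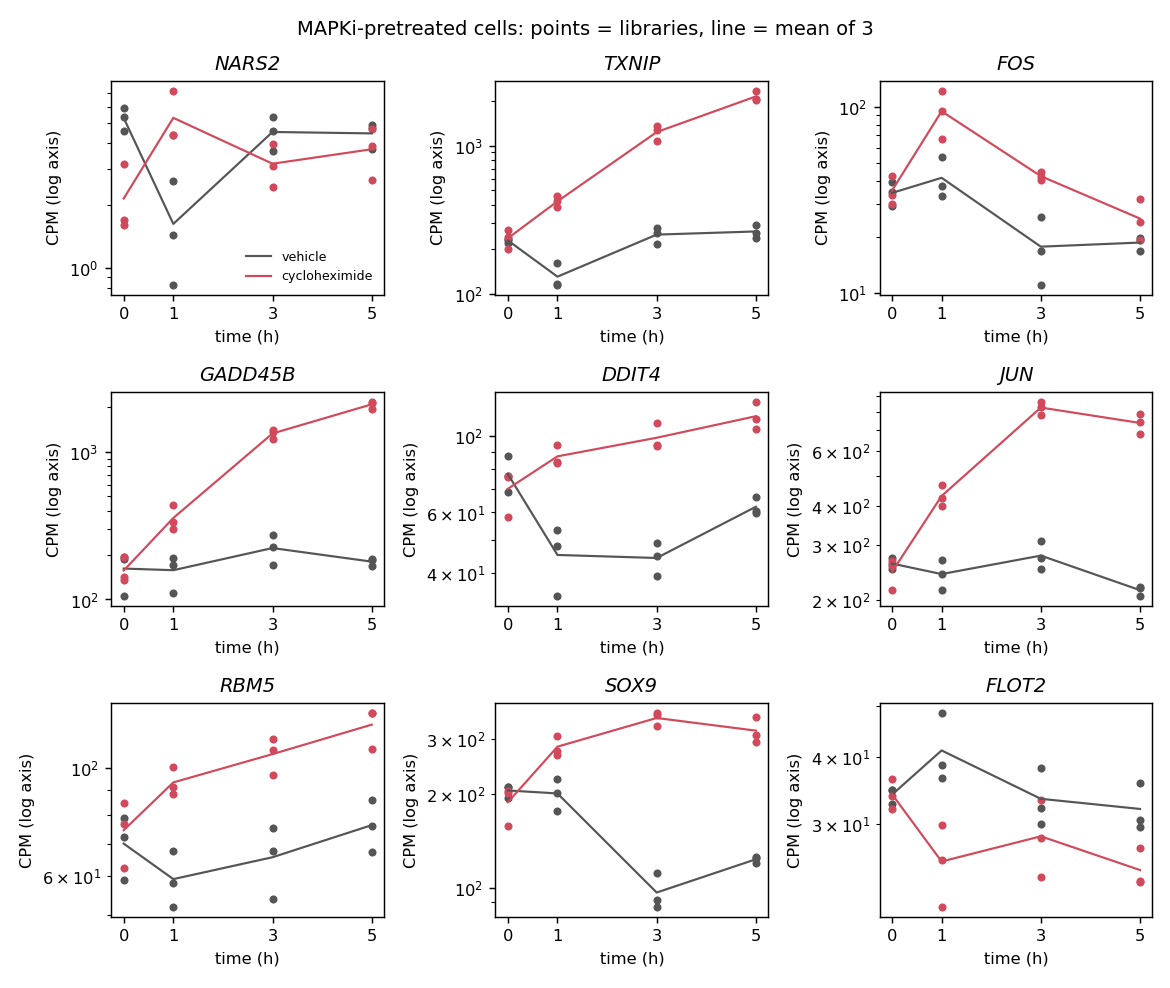
Time courses of the 9 called genes in MAPKi cells, 1 gene a panel, with time in h on the x axis and CPM on a log y axis; grey is vehicle, red cycloheximide, points are libraries and lines the mean of 3. The cycloheximide means of TXNIP and GADD45B climb at each later time, to 2146 and 2097 CPM at 5 h, the FOS mean peaks at 1 h, and the vehicle means of TXNIP and NARS2 are lowest at 1 h.

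GADD45B reached 1215, 1368 and 1412 CPM at 3 h and 1961, 2179 and 2151 CPM at 5 h with cycloheximide, while vehicle stayed between 168 and 272 CPM. The log2 effect of cycloheximide on GADD45B thus went from 1.17 at 1 h to 2.57 at 3 h and 3.54 at 5 h, and late minus early was 1.89 ± 0.29 (SE, edgeR adjusted p = 4.08e-06). TXNIP reached 1078, 1352 and 1272 CPM at 3 h and 2044, 2344 and 2051 CPM at 5 h, with late minus early at 0.98 ± 0.23 on the log2 scale (SE, edgeR adjusted p = 0.00344). TXNIP did not pass this test without replicate 2 or replicate 3 of every group.

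The level of JUN with cycloheximide peaked sooner. It stood at 833, 862 and 784 CPM at 3 h and at 681, 789 and 743 CPM at 5 h, beside vehicle means of 278 and 215 CPM. The late minus early difference of JUN was 0.84 ± 0.16 on the log2 scale (SE, edgeR adjusted p = 0.000201). SOX9 reached 357, 331 and 364 CPM at 3 h with cycloheximide while vehicle stood at 91.5, 86.5 and 111 CPM, below its level at 1 h, and the difference was 1.12 ± 0.13 (SE, edgeR adjusted p = 7.02e-10). FOS with cycloheximide was highest at 1 h and went down to 40.3, 44.7 and 42.2 CPM at 3 h and 19.3, 31.8 and 24.2 CPM at 5 h. In vehicle FOS went down too, from a mean of 41.5 CPM at 1 h to 17.8 CPM at 3 h and 18.7 CPM at 5 h. Its late minus early value of −0.35 ± 0.29 did not pass (SE, edgeR adjusted p = 0.528).

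DDIT4 and RBM5 kept effects of like size, with late minus early values of 0.07 ± 0.24 and 0.04 ± 0.17 on the log2 scale (SE, edgeR adjusted p = 0.921 and 0.945). NARS2 went the other way, from 1.76 at 1 h to −0.50 at 3 h and −0.25 at 5 h, a difference of −2.14 ± 0.44 (SE, edgeR adjusted p = 0.000332). At 0 h NARS2 had a log2 value of −1.35 ± 0.34 (SE, edgeR adjusted p = 0.459), with 3.16, 1.70 and 1.62 CPM in the cycloheximide libraries. FLOT2 was no longer called at 3 h (log2 −0.23, edgeR adjusted p = 0.426) or 5 h (log2 −0.38, edgeR adjusted p = 0.0552).

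Cells not given the inhibitors offered a comparison that shares no library with the one in MAPKi. After DMSO, 11 genes were higher with cycloheximide at 1 h (0.0736%) and 0 were lower in edgeR, where 296 were lower at an unadjusted p under 0.05 and 0 in DESeq2. JUN, FOS and TXNIP were called in both pretreatments (TXNIP in DMSO not without replicate 1 or 2, FOS not without replicate 1), which is 37.5% of the 8 genes higher in MAPKi and 27.3% of the 11 higher in DMSO. The DMSO calls also held EGR1 and IER2, ERK-driven immediate-early genes, DDIT3, TRA2B and the snoRNA hosts SNHG1 and EPB41L4A-AS1. Of these, TRA2B did not pass without any 1 of the 3 replicates, nor DDIT3, SNHG1 and EPB41L4A-AS1 without replicate 1 or 3. A test of the difference between pretreatments was called below 0 in 3 genes (0.0201%), JUN, EGR1 and IER2, and above 0 in 0 genes in edgeR, where 529 were above 0 at an unadjusted p under 0.05 and 0 in DESeq2.

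**Figure D4:**
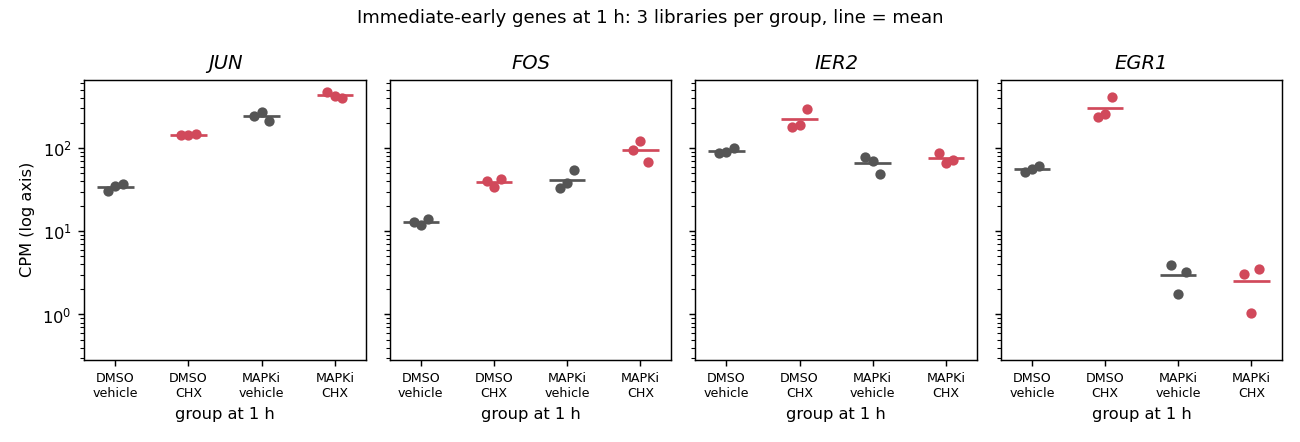
CPM on a log y axis of JUN, FOS, IER2 and EGR1 at 1 h in the 4 groups of vehicle (grey) and cycloheximide (red) after DMSO and MAPKi; points are libraries and lines the mean of 3. In DMSO the red points lie above the grey ones in all 4 panels, while in MAPKi IER2 and EGR1 overlap, and JUN in MAPKi vehicle (215 to 269 CPM) is above JUN in DMSO with cycloheximide (144 to 147 CPM).

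EGR1 showed the widest difference. After DMSO it was at 240.1, 261 and 418 CPM with cycloheximide and 51.6, 56.3 and 60.6 CPM with vehicle. After MAPKi it was at 3.11, 1.04 and 3.52 CPM (25, 11 and 25 reads) and 3.97, 1.74 and 3.20 CPM (24, 8 and 31 reads). The log2 effects were 2.44 ± 0.21 in DMSO and −0.36 ± 0.45 in MAPKi, and EGR1 differed by −2.80 ± 0.50 between them (SE, edgeR adjusted p = 0.00481). The MAPKi effect on EGR1 rested on few reads and ranged from −0.65 to 0.09 with libraries left out. Against cycloheximide at 0 h EGR1 changed by 1.71, which did not pass (edgeR adjusted p = 0.337). That value also takes in the hour itself, over which EGR1 in MAPKi vehicle went from a mean of 0.824 to 2.97 CPM.

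IER2 was at 179, 189 and 299 CPM against 86.7, 91.0 and 99.9 CPM in DMSO, and at 87.5, 66.8 and 72.2 CPM against 78.1, 69.2 and 49.5 CPM in MAPKi. Only the DMSO groups were apart, and the difference in log2 effect was −1.04 ± 0.20 (SE, edgeR adjusted p = 0.00812). Against cycloheximide at 0 h, IER2 in MAPKi changed by 0.84 and passed (edgeR adjusted p = 0.000171), as it did in none of the other 16 alternatives. That value also takes in the hour itself, over which MAPKi vehicle went from a mean of 48.95 to 65.6 CPM. IER2 was higher later in MAPKi, reaching 256 ± 6.50 CPM (mean ± SD, n = 3) at 3 h and 420.3, 353 and 397 CPM at 5 h with cycloheximide. Its late minus early value was 1.96 ± 0.18 (SE, edgeR adjusted p = 4.23e-14).

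JUN rose in both pretreatments, in MAPKi by less on the log2 scale though by more in CPM. In DMSO it went from 30.6, 34.8 and 36.6 CPM with vehicle to 144, 145 and 147 CPM with cycloheximide, a log2 change of 2.09 ± 0.15 against 0.83 ± 0.13 in MAPKi. The JUN difference was −1.26 ± 0.20 (SE, edgeR adjusted p = 0.000226). In group means, JUN went from 34.0 to 145 CPM in DMSO and from 242 to 431 CPM in MAPKi. Without replicate 2 of every group JUN did not pass this test, nor did EGR1 without any 1 of the 3 replicates or IER2 without replicate 1 or 2. For FOS the difference of −0.42 ± 0.34 did not pass (SE, edgeR adjusted p = 0.721), with 40.8, 33.8 and 42.7 CPM in DMSO against a vehicle mean of 12.9 ± 1.12 CPM (SD, n = 3). TXNIP differed by 0.74 ± 0.27 (SE, edgeR adjusted p = 0.551), and GADD45B, at 34.7, 28.3 and 31.1 CPM against 24.2, 19.6 and 37.7 CPM in DMSO, by 0.96 ± 0.37 (SE, edgeR adjusted p = 0.551). The calls of TXNIP and of GADD45B in MAPKi are therefore not shown to be particular to that pretreatment.

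Several of these genes began from levels that MAPKi itself had set. Between vehicle at 0 h after MAPKi and after DMSO, 3258 genes were higher (21.8%) and 3572 lower (23.9%). GADD45B had 187, 106 and 193 CPM after MAPKi and 12.7, 8.93 and 12.6 CPM after DMSO, a log2 change of 3.83 ± 0.30 (SE, edgeR adjusted p = 8.8e-18). JUN (3.57), FOS (3.00), TXNIP (1.38), DDIT4 (0.79) and RBM5 (0.35) were also higher on the log2 scale and called, whereas SOX9 (−1.61) and FLOT2 (−0.45) were lower and called, and NARS2 (−0.56) did not pass. FLOT2 was not called with library totals or without replicate 1 or 2, RBM5 not without replicate 1 or 3, and DDIT4 not without replicate 2. EGR1 and IER2 were lower by −5.69 and −0.93 on that scale, both called.

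Triptolide asked which effects of cycloheximide were seen while transcription initiation was blocked. Between cells given both agents and cells given triptolide alone for 1 h, 30 genes were higher (0.201%) and 3 lower (0.0201%), in libraries not shared with the main comparison. 5 genes were higher in both, DDIT4, FOS, GADD45B, JUN and TXNIP, which is 62.5% of the 8 and 16.7% of the 30. RBM5 (0.37) and SOX9 (0.42) had log2 values above 0 that did not pass, and FLOT2 had −0.28.

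**Figure D5:**
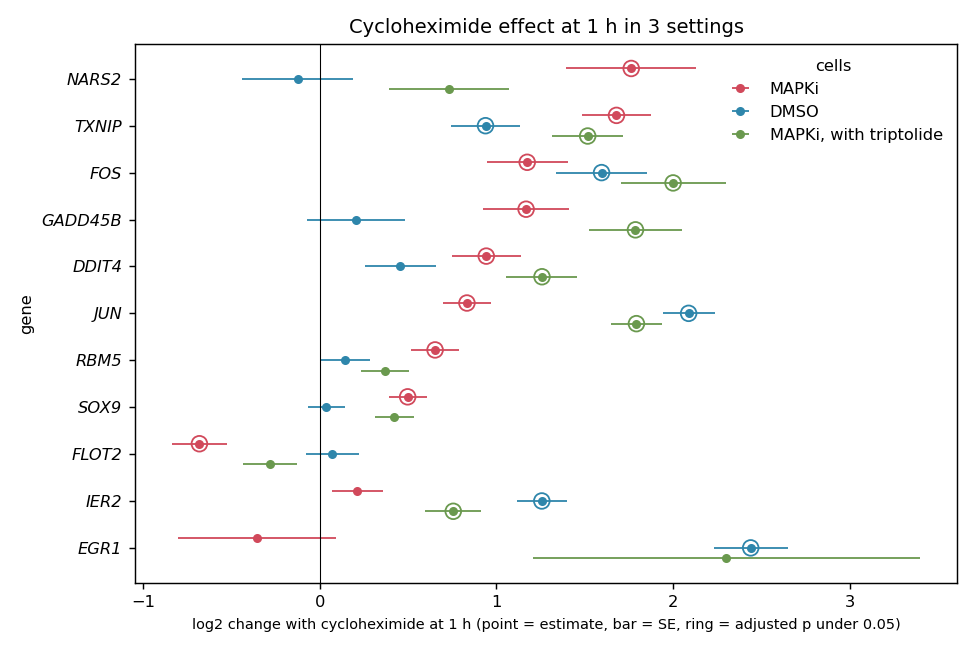
Log2 change with cycloheximide at 1 h (x axis) for the 9 called genes, IER2 and EGR1 (y axis) in MAPKi, in DMSO and in MAPKi with triptolide; points are estimates, bars the standard error, and rings mark an adjusted p under 0.05. TXNIP, FOS and JUN are ringed in all 3 settings, DDIT4 and GADD45B in both MAPKi settings but not in DMSO.

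FOS was at 22.6, 21.4 and 25.4 CPM with both agents and at 4.51, 6.53 and 6.08 CPM with triptolide alone, a log2 difference of 2.00 ± 0.30 (SE, edgeR adjusted p = 1.21e-05). JUN was at 188, 211 and 208 CPM against 44.2, 58.4 and 73.9 CPM, a difference of 1.79 ± 0.14 (SE, edgeR adjusted p = 1.29e-15). In the triptolide arm at 0 h JUN had 233, 202 and 249 CPM and FOS 27.0, 34.5 and 36.3 CPM. FOS with both agents at 1 h lay below those levels, and JUN overlapped them.

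GADD45B was at 129, 116 and 169 CPM against 27.1, 42.6 and 51.0 CPM, a log2 difference of 1.79 ± 0.26 (SE, edgeR adjusted p = 1.09e-05). TXNIP was at 188, 253 and 241 CPM against 47.8, 91.2 and 100.1 CPM (1.52 ± 0.20), and DDIT4 at 61.7, 78.1 and 71.4 CPM against 22.2, 31.7 and 34.8 CPM (1.26 ± 0.20). In none of these 3 did the groups overlap. FOS and GADD45B did not pass without replicate 1 of every group, nor DDIT4 without replicate 2. The other genes called higher under triptolide included KLF6 (1.11), NFKBIA (1.10), CLK1 (1.58), DDIT3 (0.93), ZFP36L1 (0.86), ID1 (1.21) and IER2 (0.76), which code for early feedback factors, a splicing kinase and stress regulators, and their log2 changes without triptolide were 0.40, 0.53, 0.29, 0.48, 0.69, 1.02 and 0.21. DDIT3, ZFP36L1 and IER2 did not pass under triptolide without replicate 1 or 2, nor ID1 without replicate 1 or 3.

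Whether the effect differed with and without triptolide was tested as well, and 0 genes passed in edgeR, with 192 above 0 and 284 below 0 at an unadjusted p under 0.05 and 2 called in DESeq2. JUN had the value −0.96 ± 0.19 (SE, edgeR adjusted p = 0.0736). With triptolide alone, 99 genes were lower (0.662%) and 18 higher at 1 h than at 0 h, relative to the typical gene, to which the scaling is set. FOS fell by 2.50 on the log2 scale, JUN by 1.97, GADD45B by 1.63, TXNIP by 1.35, DDIT4 by 1.11 and IER2 by 1.07, all called, though GADD45B not without replicate 1 (edgeR adjusted p = 0.203). RBM5 (−0.04), FLOT2 (−0.03), SOX9 (−0.35) and NARS2 (−0.56) were not called. The median of the 8 genes that rose with cycloheximide was −1.23 after 1 h of triptolide, beside 0.00 over all genes tested.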

How the data were processed

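The authors deposited raw counts, whole numbers of QuantSeq reads per gene with no normalization. Per their methods and processing notes, reads were trimmed (fastp 0.20.1), aligned to GRCh38.p13 (HISAT2 2.2.1) and counted on exons (HTSeq 0.13.5). The strand setting is not given in the sources used here, and without molecular identifiers PCR copies count separately. The spike-in stated for the RNA has 0 entries in the table.

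All 96 libraries were fitted together in edgeR 4.0.16 (R 4.3.3), with 1 mean for each of 32 groups, TMM scaling, filterByExpr and a robust quasi-likelihood test, two-sided. A gene was called where its p, adjusted by Benjamini-Hochberg over all genes tested, was under 0.05. Alternatives included DESeq2 1.42.0, other scalings, other controls and left-out libraries. CPM use TMM factors. Named genes were the called genes with a mean of at least 5 CPM in 1 group, members of the gene lists, and called differences of effect. The comparison, members and lists were chosen with earlier results of these data known. By symbol, 13196 tested genes matched the GENCODE annotation, 1667 did not and 85 were ambiguous. Totals of the 6 libraries ran from 4419960 to 9575163, which limits genes of few reads.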

Additional observations from a re-analysis of the deposited data

Results flagged for a closer look

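In 3 genes the effect of cycloheximide at 1 h differed by pretreatment (edgeR interaction, MAPKi minus DMSO, log2). EGR1 had −2.80 ± 0.50 (SE, edgeR adjusted p = 0.00481), JUN −1.26 ± 0.20 (SE, edgeR adjusted p = 0.000226) and IER2 −1.04 ± 0.20 (SE, edgeR adjusted p = 0.00812). The starting levels also differed by pretreatment, though not all in the same direction. At 0 h MAPKi vehicle stood at 0.137 to 2.16 CPM for EGR1 and 45.6 to 55.3 CPM for IER2, lower than in DMSO. For JUN it stood at 252 to 273 CPM, higher than in DMSO. What part the starting levels had in the differences was not tested. In all 8 alternatives the 3 values stayed below 0, and EGR1 passed in 5, JUN in 7 and IER2 in 6 of them. Without replicate 2 of every group none of the 3 passed.

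Among the 808 genes above and 452 below 0 in the difference between the effect at 1 h and the mean of 3 and 5 h in MAPKi (edgeR, log2, later minus 1 h) were 5 of the 9 genes called at 1 h, and IER2. It grew in IER2 by 1.96 ± 0.18, in GADD45B by 1.89 ± 0.29, in SOX9 by 1.12 ± 0.13, in TXNIP by 0.98 ± 0.23 and in JUN by 0.84 ± 0.16 (SE). NARS2 went from above to below 0, with −2.14 ± 0.44 (SE). GADD45B, SOX9, IER2 and NARS2 passed in all 8 alternatives, which reuse the same libraries. The test uses the 1 h libraries that chose the 9 genes. This favours a smaller later effect in them, the direction in which NARS2 went. TXNIP did not pass without replicate 2 or 3 (lowest value over the alternatives 0.79), nor JUN without replicate 2. In SOX9 the vehicle level also moved, from 177 to 224 CPM at 1 h to 86.5 to 111 CPM at 3 h, and in NARS2 it moved from 0.827 to 2.61 CPM to 3.67 to 5.33 CPM.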

How the results depend on the processing

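The total of 9 genes called at 1 h in MAPKi became 61 with cycloheximide at 0 h as control and 131 with the mean of all vehicle times. Those controls also take in changes with time. The total was 31 with DESeq2, 25 with library totals, 190 without the filter on low counts and 16 with the replicate block. It ranged from 2 to 30 with replicates or single libraries left out, of which 2 came without replicate 1, 2 without replicate 2 and 30 without replicate 3 of every group. All 9 genes remained called with DESeq2, DESeq2 size factors, no filter and the replicate block, but 3 of them with the 6 libraries alone. Within the 6 libraries replicate numbers gave no clear pairing, as deviations of same-numbered libraries correlated at 0.047, −0.242 and −0.328 over 10009 genes. Libraries 2 and 3 correlated better with other numbers than with their own, and the block ended no call of the 9. An effect of replicate shared by all groups was not tested. GADD45B in MAPKi vehicle was lowest in replicate 2 at 0 h (187, 106 and 193 CPM). The same held at 1 h (172, 111 and 190 CPM) and at 3 h (225, 172 and 272 CPM), but not at 5 h (168, 186 and 187 CPM). Without the filter on low counts, totals of the other comparisons became 8 (from 0) at 0 h, 38 (from 11) in DMSO, 232 (from 3) for the difference between pretreatments, 67 (from 33) under triptolide, 18 (from 0) for the difference with triptolide and 399 (from 117) for triptolide alone. DESeq2 gave 2 for the difference with triptolide and 185 for triptolide alone. With a replicate left out they ranged from 4 to 11, 0 to 2, 8 to 18, 0 to 4, and 32 to 787 in the same order from DMSO on, and from 378 to 713 (from 1260) for late minus early. The cause of these moves was not tested. Genes of few reads, such as NARS2 and EGR1 in MAPKi, are limited by depth.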
